A study of Arabidopsis thaliana with 12 samples.

Results

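In leaves of Arabidopsis thaliana, 88 of 22746 probe sets moved one way with salt in Ws and the other way in Col. The accessions Wassilewskija (Ws) and Columbia (Col) are common laboratory strains. For each probe set the response was the mean log2 signal at 100 mM NaCl minus the mean at 0 mM. A probe set was taken when its responses in Ws and Col had opposite signs, when both were at least 0.5 in size, and when its highest group mean was at least 6. The probe sets were thus chosen by the measured responses of Ws and Col. This left 97 probe sets. From these, 9 were left out by name: AT1G47400, AT5G05250, 5 probe sets of plastid-encoded genes, an alpha-expansin and a calmodulin-like gene. Of the 88, 61 were higher in Ws and lower in Col with salt, and 27 were lower in Ws and higher in Col. A single gene is listed for 32 of them, several genes for 4 and none for 52, so genes are named below for 32 probe sets only. The 52 could not be checked against the names left out, so probe sets of the excluded kinds may remain among them. Probe set 244944_s_at, with several listed genes, matched no locus and could not be checked by locus either. Opposite movement was the rare case: 3244 probe sets passed the same limits of size and signal, of which 3147 moved in the same direction in both accessions.

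The groups were Ws, Col and Col(gl), each grown on soil with no salt or with NaCl raised by 50 mM every 2 days to 100 mM. Treatment began 14 days after sowing and leaves were taken on day 20, 6 days later. The labels give no explanation of how Col(gl) differs from Col, nor the number of plants behind a sample. Each of the 6 groups had 2 arrays, described as biological replicates, and so few arrays leave every value imprecise.

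Salt reaches leaves as a shortage of water and later as sodium and chloride in the tissue. Plants answer by closing stomata, making protective proteins and compatible solutes, changing cell walls, and tuning defence and pigment genes. Accessions of one species can differ in the level of such genes and in their answer to stress. In bulk leaf RNA, fewer cells of a type and less RNA per cell cannot be told apart.

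The arrays were not equally clean. Replicate 1 of Ws and of Col at 100 mM had a median plastid-encoded signal of 8.73 and 9.48 over 69 probe sets, against 10.34 to 11.78 on the other arrays. The same arrays had the widest gap between the 3' and 5' actin control probes, 3.70 and 3.68 log2 units against 1.99 to 2.69 elsewhere. Across the 88 probe sets the SD between replicates was 0.33 log2 units in unsalted Ws and 0.19 in unsalted Col, and 0.58 and 0.48 in the salted groups, against 0.13 in each Col(gl) group. The 0.33 owes much to HTB11 alone, which read 4.23 and 7.84 on the unsalted Ws arrays. Over all probe sets the SD was 0.14 in unsalted Ws and 0.15 in unsalted Col, and 0.35 and 0.30 in the salted groups. Lower quartiles of the arrays lay between 4.19 and 4.42, and signals at or under them are not shown to be above background. Of the 88, 10 had a group mean there, and the 1 among them with a single listed gene is AT3G51330 in Ws without salt. The minimum of 6 was reached through Ws only by 4 of the 88, through Col only by 6 and through Col(gl) only by 4.

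**Figure D1:**
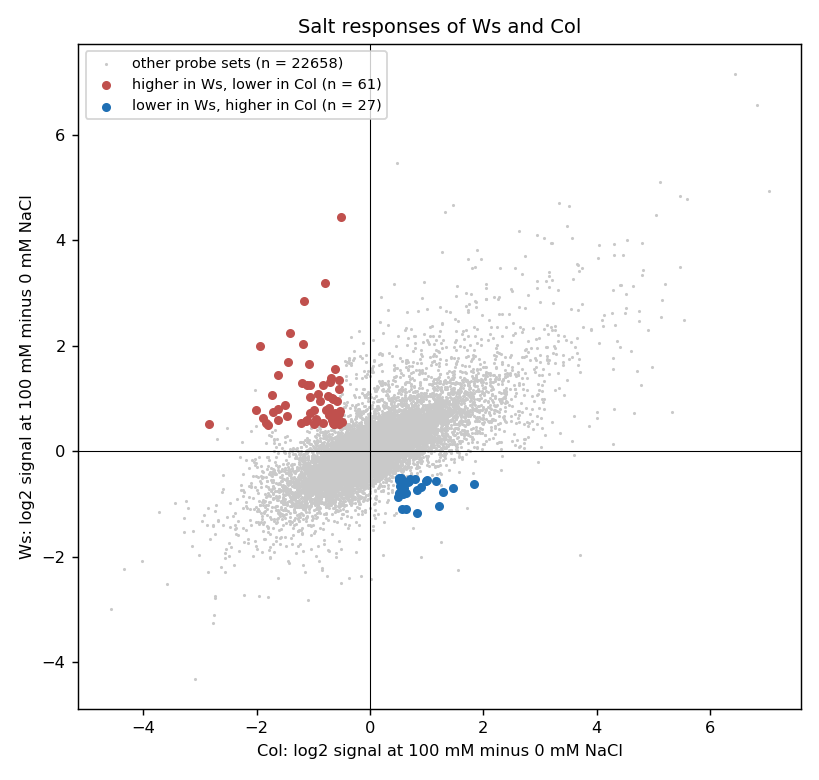
Salt response (log2 signal at 100 mM minus 0 mM NaCl) in Col on the horizontal axis and in Ws on the vertical axis, 1 point per probe set, grey for all others. The 61 probe sets higher in Ws and lower in Col lie at upper left and the 27 of the other kind at lower right, apart from a cloud that runs from lower left to upper right.

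Named genes that were higher in Ws and lower in Col with salt included a chitinase, a pigment gene, lipid transfer proteins and a chaperone partner. For 38 of the 61 no gene is listed, so these names do not describe the make-up of the whole direction. The Ws and Col values that follow chose the genes, so they are given per array as a description and carry no test. CHI (AT2G43570), a chitinase, a class of enzyme that attacks fungal walls, read 5.65 and 5.24 (replicates 1 and 2) in Ws without salt and 8.14 and 9.13 with salt. In Col it read 9.37 and 9.46 without salt and 8.20 and 9.03 with salt. The response was 3.19 log2 units in Ws and -0.80 in Col, and the groups overlapped in neither. Without replicate 1 of salted Col, an array with low plastid-encoded signal, the Col response was -0.38 and the rule was not met. The salted means of the accessions were then nearly equal, 0.01 apart, where Ws minus Col had been -3.97 without salt.

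DFR (AT5G42800) is dihydroflavonol 4-reductase, which commits flavonoids to anthocyanin. It read 6.77 and 6.75 in Ws without salt and 9.74 and 7.08 with salt, against 11.40 and 11.43 and then 10.47 and 10.21 in Col. The responses were 1.65 and -1.07. The groups did not overlap, but the higher Ws mean came mainly from replicate 1 with salt, and without that array DFR no longer met the limit of 0.5.

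AT5G55450, of the lipid transfer protein family, read 7.52 and 7.69 in Ws without salt and 9.08 and 8.83 with salt. In Col it read 9.60 and 9.68 without salt and 9.48 and 8.70 with salt. Its responses of 1.35 and -0.55 thus rested in Col on replicate 2, and the rule was not met without it. AT1G62510, of the same superfamily, had means of 8.72 without salt and 9.32 with salt in Ws. In Col it read 9.39 and 9.22, then 7.09 and 8.26, a response of -1.63 against 0.60 in Ws. Lipid transfer proteins are small secreted proteins of the cell surface.

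AT1G73040, a jacalin-type mannose-binding lectin, had responses of nearly equal size in both accessions. It read 5.22 and 5.63 in Ws without salt and 6.15 and 6.27 with salt, against 6.71 and 6.70 and then 5.73 and 6.10 in Col. The responses, 0.79 and -0.78, differed little in size, and neither accession's groups overlapped. Among the 32 named probe sets it was the only 1 that met the rule with any single array of Ws or Col left out.

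AT5G48570, also called ROF2 or FKBP65, is an immunophilin that partners HSP90 in heat acclimation. It read 6.97 and 6.92, then 7.04 and 8.85 in Ws, so the response of 1.00 came from replicate 2 with salt. In Col it read 6.86 and 7.39, then 6.59 and 6.31, a response of -0.68. The gap between salted replicates in Ws was wider than the response itself. AILP1 (AT5G19140), an aluminium-induced-protein relative, was among the most abundant of the set at 10.79 and 10.84, then 11.71 and 11.34 in Ws. In Col it read 12.21 and 12.02, then 11.35 and 11.76, so that both accessions had nearly the same mean with salt (Ws minus Col -0.03).

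The most negative response in Col was that of AT5G58570, whose role is not described here. It read 8.08 and 7.81 in Col without salt and 4.64 and 5.56 with salt, a response of -2.84. In Ws it read 4.97 and 5.55, then 5.57 and 5.97, a response of 0.51 whose groups nearly met. AT3G51330, an aspartyl protease family member, was alike in shape: its response was -1.80 in Col and 0.50 in Ws, where the unsalted signal of 4.01 and 3.93 was within the array background. AT5G52390, a PAR1 family protein, had a response of -1.47 in Col and 0.66 in Ws.

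The other 11 named genes of this direction had responses from 0.51 to 1.00 in Ws and from -1.22 to -0.50 in Col. They span signalling, transcription and RNA processing. AT3G55940, a phosphoinositide-specific phospholipase C, was at 0.57 in Ws and -0.94 in Col. AT1G32700, a PLATZ-type transcription factor, was at 0.51 and -0.63. AT1G09230, a protein of the minor spliceosome, was at 0.51 and -0.99, and AT2G40960, an R3H-domain nucleic acid binding protein, at 0.58 and -1.14. Metabolic members were AT2G38180, a GDSL-type esterase, at 0.55 and -1.22, AT3G51440, of the strictosidine synthase-like family, at 1.00 and -0.66, and AT3G60420, of the phosphoglycerate mutase family, at 0.55 and -0.50. AT2G29670, with tetratricopeptide repeats, was at 0.76 and -0.54, and AT1G74940, of the FLZ zinc-finger family, at 0.73 and -0.62. AT3G52480 and AT1G65490, for which no role is given here, were at 0.56 and -0.59 and at 0.55 and -0.66.

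**Figure D2:**
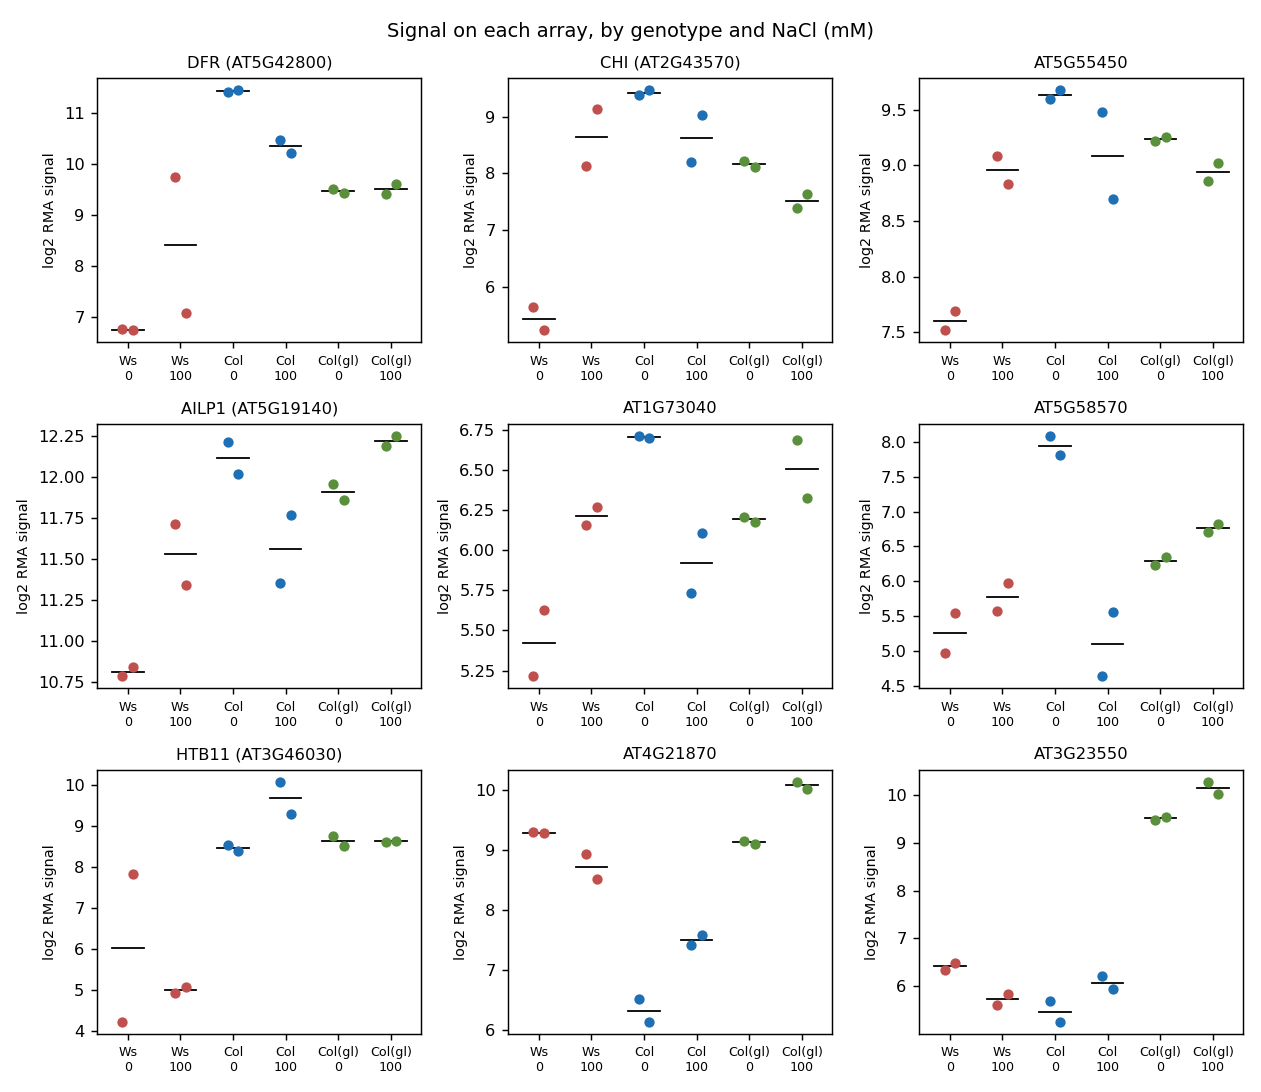
Log2 signal of 9 named genes on each of the 12 arrays (points; lines are means of 2 arrays), by genotype and NaCl concentration. The scale differs between panels. CHI in Ws climbs to the level of salted Col, DFR in salted Ws spreads from 7.08 to 9.74, and the unsalted Ws arrays of HTB11 lie at 4.23 and 7.84.

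Named genes that were lower in Ws and higher in Col with salt included a small heat shock gene and transport, wall and immune receptor genes. For 14 of the 27 no gene is listed. AT4G21870, a small heat shock protein of the HSP20 type, read 9.30 and 9.28 in Ws without salt and 8.93 and 8.51 with salt. In Col it read 6.52 and 6.14, then 7.41 and 7.59. The responses were -0.57 and 1.17 and neither pair of groups overlapped, yet Ws stayed above Col at both salt levels.

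Both named transporters of this direction belong to the MATE family, which exports organic compounds from cells or into vacuoles. AT1G11670 read 6.40 and 6.50, then 5.56 and 5.14 in Ws, and 5.81 and 5.35, then 6.13 and 6.17 in Col. Its order between the accessions therefore turned, with responses of -1.10 and 0.57. AT3G23550 had responses of -0.69 and 0.60, with means of 6.41 and 5.73 in Ws and 5.47 and 6.08 in Col, while Col(gl) was far above both at 9.50 and 10.14.

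A pair of intracellular immune receptors of the TIR type, AT3G04210 and AT5G11250, moved by -0.52 and -0.53 in Ws and by 0.71 and 0.52 in Col. AT3G04210 read 8.06 and 8.22, then 7.28 and 7.94 in Ws, and 8.61 on both arrays, then 9.44 and 9.21 in Col. Without salt the Ws mean was already the lower, by -0.47 for AT3G04210 and -0.14 for AT5G11250, whose arrays overlapped. Wall genes were TBL45 (AT2G30010), of a family of polysaccharide O-acetyltransferases, at -0.55 and 1.01, and AT3G62110, a pectin lyase-like protein, at -0.79 and 0.63. The salted Ws arrays of TBL45 were 8.39 and 7.41 against 8.51 and 8.39 without salt, so the Ws groups met and the response came from replicate 2. AT5G40450, known as a regulator of vacuolar bulbs, was at -0.51 and 0.55, and AT5G28630, a glycine-rich protein, at -0.56 and 0.98.

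HTB11 (AT3G46030), a histone H2B, responded by -1.04 in Ws and 1.23 in Col, but the Ws value rested on single arrays. Its unsalted Ws arrays read 4.23 and 7.84 and overlapped with 4.92 and 5.07 with salt. Without replicate 1 at 0 mM the Ws response was -2.85. Without replicate 2 the Ws response turned positive, the direction of Col, and the rule was not met. The array that then remained, at 4.23, lay under its own lower quartile of 4.33, so that no size is given. The direction of HTB11 in Ws is thus open. In Col the arrays were close, at 8.55 and 8.39, then 10.08 and 9.31. AT2G07751 had responses of -0.86 and 0.50, its Col arrays overlapped, and it no longer met the rule when any 1 of 3 arrays was left out. Its locus lies in the stretch of nuclear chromosome 2 that is known to be copied from the mitochondrial genome, and its probe set is of the kind that may read several sequences.

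Nearest to the limit of 0.5 on the inside were AT2G07751, at 0.502 in Col, and AT3G60420, at -0.503 in Col. Just outside lay AT1G04040, at -0.498 in Ws and 1.15 in Col, and the temperature-induced lipocalin TIL (AT5G58070), at 0.50 in Ws and -0.493 in Col.

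Large values also belonged to probe sets with no listed gene, and 2 are given by their identifiers, chosen after their values were seen. Probe set 266142_at had the largest Ws response, 4.45, from 5.84 and 5.72 to 10.33 and 10.13, while Col went from 11.55 and 11.38 to 11.12 and 10.80. Its fall in Col was small, and the rule was not met without replicate 1 of unsalted Col or replicate 2 of salted Col. Probe set 266385_at had the largest value of the smaller response, with 2.00 in Ws and -1.94 in Col. It read 6.54 and 6.61, then 8.17 and 8.97 in Ws, and 10.93 and 10.94, then 8.09 and 9.89 in Col. In each the Ws signal climbed towards that of Col, which was the higher at 0 mM.

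Most of the 88 responses separated the arrays, as large differences do. The Ws groups did not overlap for 82, beside 55.6% of all probe sets, and the Col groups for 85, beside 73.6%. They did so in opposite directions for 79, beside 4.79% of all. These values belong to the contrasts that chose the probe sets. The rule was met without any 1 of the 8 arrays of Ws and Col by 20 of 88, of which 19 were higher and 1 lower in Ws. With replicate 1 arrays alone the rule gave 135 probe sets and with replicate 2 arrays alone 119, of which 25 were on both lists (18.5% of the former and 21.0% of the latter). Leaving out both salted arrays with low plastid-encoded signal, a check added after seeing the data, gave 113 probe sets, of which 50 were among the 88. Whether plastid-encoded signal or RNA quality has a part in the chosen responses was not tested beyond this.

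The Col(gl) arrays took no part in the rule on sign and size, so their salt response was tested. They did count towards the signal minimum, which 1 of the 61 and 3 of the 27 reached through Col(gl) only. By limma with adjustment over all 22746 probe sets, 5 of the 88 were called, beside 1.49% of all probe sets. Of the 27 probe sets higher in Col, 3 rose in Col(gl) (background 0.787% higher) and 0 fell (background 0.703% lower). Of the 61 lower in Col, 2 fell and 0 rose. At an unadjusted p under 0.05, limma gave 9 higher and 1 lower of the 27, and 6 higher and 11 lower of the 61, beside 7.65% higher and 7.19% lower of all probe sets. Without the members that reached the minimum through Col(gl) only, a check chosen after seeing the data and repeated below for the averaged levels, the 5 calls were the same in number and the unadjusted count of 9 became 7. Each of the 5 calls thus had the direction of Col and not of Ws.

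AT4G21870, the HSP20-type protein, was the named gene among the 5. It read 9.16 and 9.10 in Col(gl) without salt and 10.13 and 10.01 with salt, and rose by 0.94 ± 0.16 on the log2 scale (± SE over 2 salted and 2 unsalted arrays, limma adjusted p = 0.028). The call ended when either unsalted Ws array or any of the 4 Col(gl) arrays was left out (adjusted p = 0.0613 to 0.246). The other calls had no listed gene and are given by identifier after their values were seen. Probe set 264751_at rose by 2.81 ± 0.21, from 6.72 and 6.52 to 9.54 and 9.33 (adjusted p = 0.00048), and 248270_at by 1.98 ± 0.21. In Col the same probe sets had responses of 1.83 and 1.46, and in Ws of -0.62 and -0.69. Probe set 251109_at fell by 2.50 log2 units, with an SE of 0.34 (limma adjusted p = 0.00957), and 263831_at by 1.66 (SE 0.14). Col had responses of -1.20 and -0.69 there, and Ws of 1.30 and 1.40.

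The remaining members gave no call in Col(gl). Over all members, the 5 called ones included, the Col(gl) differences went both ways. Salted and unsalted Col(gl) arrays did not overlap for 67 of the 88, beside 55.0% of all probe sets. Of the 61, 38 were higher and 23 lower with salt in Col(gl), with a median of 0.07, and of the 27, 19 were higher and 8 lower, with a median of 0.20. Over all probe sets 46.3% were higher and the median was -0.02. The limma difference was -0.65 ± 0.33 for CHI (adjusted p = 0.403) and 0.05 ± 0.62 for DFR (adjusted p = 0.984). DFR read 9.42 to 9.60 on the 4 Col(gl) arrays, so its wide SE came mainly from arrays of the other groups. AT2G38180, at 0.68 ± 0.15, came nearest to a call among the other named genes (adjusted p = 0.0625). In a fit restricted to Col(gl), 7 of the 61 were called higher and 8 lower, and 9 of the 27 higher and 2 lower. Of all probe sets 3.4% were then called higher and 2.48% lower. Leaving out 1 array gave 0 to 2 higher and 1 to 5 lower of the 61, and 1 to 5 higher of the 27. The low counts, 1 and 1, came without any of the 4 Col(gl) arrays and the high ones, 5 and 5, when either salted Ws array was left out. When either salted Col array was left out, 4 of the 61 were called lower. Plastid-encoded signal moved in Col(gl) too, from 10.34 and 10.35 without salt to 11.56 and 11.58, and its part in these values was not tested.

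**Figure D3:**
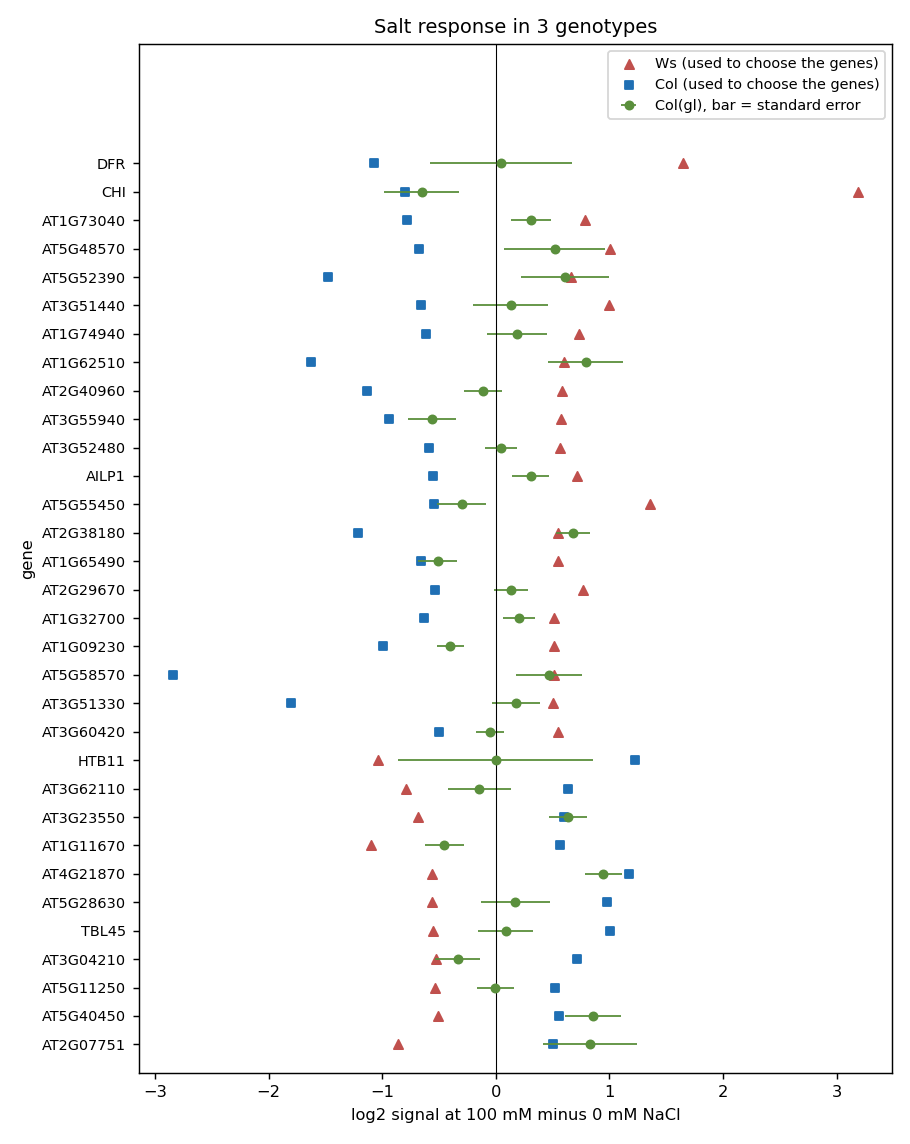
Salt response (log2 signal at 100 mM minus 0 mM NaCl) of the 32 named genes in Ws (triangles), Col (squares) and Col(gl) (circles with standard error). Ws and Col sit on opposite sides of 0 because the genes were chosen so; the circles lie between -0.65 and 0.94, and AT4G21870 at 0.94 is the single call.

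Averaged over both salt levels, Ws lay below Col for most of the probe sets that were higher in Ws and lower in Col with salt. This average is at right angles to the responses that chose the probe sets if all arrays vary alike, but it uses the same arrays, and the salted ones varied more, so it is not fully independent of the choice. Of all probe sets 21.8% were called in either direction. Of the 61, 36 were called lower in Ws than in Col by limma (background 9.2%) and 6 higher (background 12.6%), with a median of -0.84 against 0.03 over all probe sets. Of the 27, 7 were called higher and 6 lower, with a median of 0.19. For DFR the difference, Ws minus Col, was -3.29 ± 0.44 (log2, ± SE, 4 arrays per accession, adjusted p = 0.000621), and for CHI -1.98 ± 0.23 (adjusted p = 0.000293). It was -1.08 for AT5G55450 and -1.01 for AT5G58570. A member that reached the signal minimum through Col only, as AT5G52390 and AT3G51330 did, is favoured by the choice to be lower in Ws, and no difference is given for them. Without the members that reached it through Ws or Col only, 32 were called lower and 5 higher of 54, and 6 higher and 6 lower of 24. AT2G40960 was the gene of that direction with the largest difference the other way, 1.06 ± 0.12 higher in Ws (adjusted p = 0.000196).

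Among the genes lower in Ws and higher in Col with salt, AT4G21870 was higher in Ws by 2.09 ± 0.12 (log2, ± SE) and AT5G40450 by 0.89 ± 0.17. HTB11 was lower in Ws, at -3.57 ± 0.61, beside its discordant unsalted arrays. The immune receptors AT3G04210 and AT5G11250 were lower in Ws too, at -1.09 ± 0.14 and -0.66 ± 0.11. A level difference between accessions on an array cannot be told apart here from a difference in how their sequences bind the probes.

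Col(gl), averaged in the same way, lay on both sides of Col. Of all probe sets 28.3% were called in either direction. Of the 61, 36 were called lower in Col(gl) than in Col (background 16.1%) and 6 higher (background 12.3%). Of the 27, 14 were called higher and 4 lower. Without the members that reached the signal minimum through Col(gl) or Col only, which the choice favours, these were 32 lower and 5 higher of 55, and 11 higher and 3 lower of 23. AT3G23550, the MATE transporter, was 4.05 ± 0.12 higher in Col(gl) (log2, ± SE, 4 arrays per genotype, adjusted p = 8.63e-08), followed among named genes by AT4G21870 at 2.69 ± 0.12, AT5G40450 at 2.18 ± 0.17 and AT3G04210 at 2.09 ± 0.14. AT1G62510 was lower, at -1.40 ± 0.23, as was DFR at -1.39 ± 0.44 (adjusted p = 0.0405), the latter a call that ended in 11 of the alternative settings. CHI was lower at -1.18 ± 0.23. This comparison and that of Ws with Col share the Col arrays.

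For many of these probe sets Ws and Col lay closer together with salt than without, and for others their order turned. Without salt Ws lay below Col for 59 of the 61, for 57 with no overlap between the arrays (background 31.0%). With salt it lay below for 26 and above for 35, and 27 of the latter did not overlap (background 32.5%). For the 27, Ws lay above Col without salt for 24, of which 19 did not overlap (background 32.2%). With salt it lay below for 22, of which 14 did not overlap (background 14.1%), and above for 5. The order of the accessions changed between the salt levels for 33 of the 61 and 19 of the 27. In 26 and 5 more the order stayed and the distance shrank, and in 2 and 3 it stayed and the distance grew. The median distance over the 61 was 1.82 log2 units without salt and 0.69 with salt, and over the 27 it was 0.94 and 0.74, against 0.21 and 0.18 over all probe sets, of which 53.7% had a smaller distance with salt. A shift of at least 1 unit between the accessions is fixed by the rule, so these counts describe where the shift started and ended and are not a test.

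**Figure D4:**
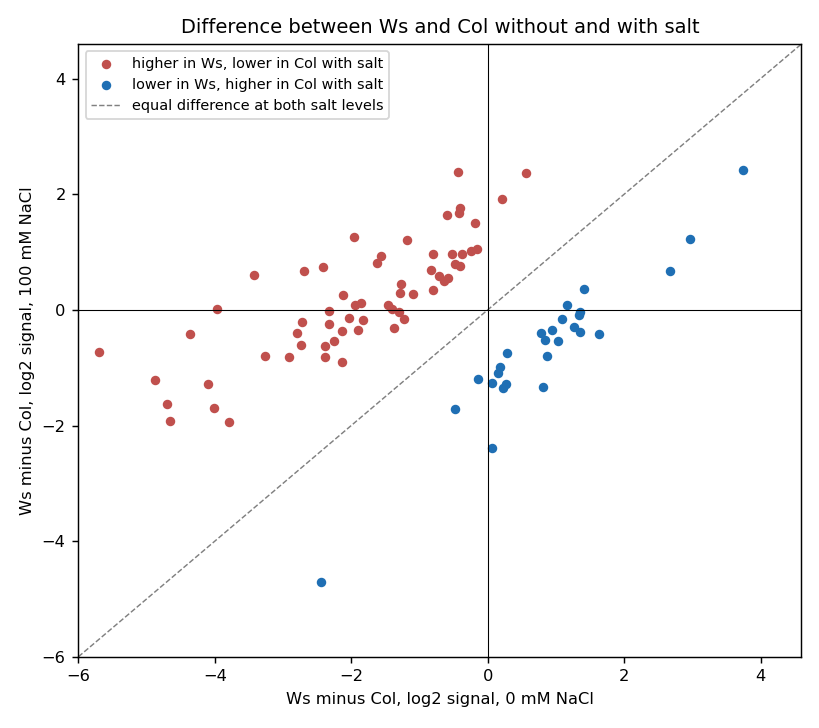
Difference between Ws and Col (mean log2 signal of Ws minus Col) at 0 mM NaCl on the horizontal axis and at 100 mM on the vertical axis for the 88 probe sets. Points on the dashed line would have the same difference at both levels. Of the 61 probe sets higher in Ws with salt, 59 start left of 0, and 35 end above 0.

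Without salt, Col(gl) lay between Ws and Col for 35 of the 61, below both for 19 and above both for 7. For the 27 it was above both in 14 cases, between them in 6 and below both in 7. DFR, for example, read 9.50 and 9.43 in Col(gl), between 6.77 and 6.75 in Ws and 11.40 and 11.43 in Col, and CHI lay between them at 8.22 and 8.11. AT3G04210, the TIR-type receptor, was above both at 11.25 and 11.20.

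Of 20 gene lists for leaf stress and growth, 3 held a named member. Measured genes summed to 293 over the lists, 3 of them members, beside 32 members among the 13513 probe sets with 1 gene. Lists without a member ranged from 1 measured gene (salicylate, ethylene and ribosomal proteins) to 83 (protein turnover). The jasmonate list had 4 and the kinase list 3, so a small list without a member tells little. The list of heat shock proteins and chaperones had 5 genes measured by name, of which limma called 1 lower in Ws (background 9.16% higher and 7.45% lower) and 2 lower in Col (background 16.4% higher and 21.1% lower). AT5G48570 was its single member among the 88. The lists were matched by gene symbol, so the HSP20-type AT4G21870 and the pectin lyase-like AT3G62110 were on none of them. The cell wall list had 59 genes, 13 higher and 5 lower in Ws, 16 higher and 18 lower in Col, and 1 higher and 3 lower in Col(gl), with TBL45 as its member. Cell cycle and chromatin genes numbered 14, with 1 lower in Ws and 4 higher in Col, and HTB11 as the member. Medians of the lists were -0.11, -0.01 and -0.03 in Ws and -0.45, -0.05 and 0.27 in Col, against -0.03 and -0.13 over all probe sets.

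Markers of leaf and of other cells were measured for few genes. The mesophyll list was represented by RCA, the activase of Rubisco, at 13.6 to 14.1 on all arrays. The guard cell list held FMA alone, at 6.50 to 7.23. Trichome and epidermis markers FDH and TRY summed to 10.38 to 11.19 without salt and 10.88 to 12.30 with salt on the log2 scale, but moved apart. FDH rose by limma in Ws (1.12 ± 0.22, log2, ± SE, adjusted p = 0.00886) and in Col (0.76 ± 0.22, adjusted p = 0.0246), while TRY fell in both (-1.40 ± 0.16 and -2.10 ± 0.16). The sum hides that TRY was low in Col(gl), at 4.73 and 5.00 without salt and 4.95 and 4.66 with salt. In unsalted Ws and Col it read 8.09 to 8.60. Root markers PYK10 and EXPA7 summed to 5.16 to 5.44 on unsalted arrays, to 7.86 and 10.02 in salted Col, to 4.95 and 6.98 in salted Ws and to 5.13 and 5.14 in salted Col(gl). PYK10 alone was higher there, at 9.99 and 7.73 in salted Col (limma adjusted p = 0.00227) and at 6.73 and 3.61 in salted Ws (adjusted p = 0.268), in each accession most on replicate 1. EXPA7 was called lower in Col (-0.47 ± 0.15, adjusted p = 0.0359), at signals near the lower quartile. The vascular, flower and seed lists had no gene with a name here. The part of these differences in the responses was not tested.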

How the data were processed

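Leaf RNA of 12 samples was hybridised to 1 Affymetrix array each. The deposited values are log2 signals, 1 per probe set and array, that the authors made with GCOS and RMA per the submitters' processing notes; versions, and which arrays were normalized together, are not given in the sources used here. The log2 scale was read from the range of the values. They were used without further normalization.

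The table held 22810 probe sets; 64 controls were left out. Genes came from the platform annotation, matched to RefSeq (TAIR10.1) symbols: 13513 probe sets list 1 gene (13436 matched), 503 several and 8730 none. The tests came from limma 3.58.1, run in R 4.3.3 (1 coefficient per group, eBayes, 6 residual and 3.45 prior degrees of freedom; two-sided, Benjamini-Hochberg over 22746, called under 0.05), and the fit was tested on simulated data. The simulated arrays had independent noise with 1 SD per probe set in all groups. They therefore do not test the fit under the unequal spread and correlated replicate deviations of the real arrays. The labels do not say whether plants were pooled, and p-values measure only the spread between these samples. That spread was 1 value per probe set shared by all 6 groups, although the salted Ws and Col arrays varied most. A Col(gl) call therefore also depends on the Ws and Col arrays. Replicate numbers were not used to pair samples in the main fit. Deviations of same-numbered arrays correlated from -0.35 to 0.70 between groups. The highest value was between salted Ws and salted Col, the arrays that varied most, and was 0.51 there over the chosen probe sets. Both replicate 1 arrays of these groups had low plastid-encoded signal and a wide actin gap. Whether a shared replicate effect has a part in the chosen responses was not tested beyond the alternatives given here.

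Members and lists were chosen with earlier results of these data known. The rule for named genes covers members with 1 listed gene: in each direction the 12 with the largest smaller response, those called in Col(gl), the 5 largest called Ws minus Col levels in each sign, list members, and those next to the limit. Other members with 1 gene, and values outside these comparisons, were chosen after their values were seen. Alternatives were a replicate block, a filter on the lowest 25% of signal, a robust prior with an intensity trend, quantile renormalization, only the groups compared, each array left out, and other limits of the rule. Promoter motifs were not analysed here. Figures used matplotlib 3.10.9.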

Additional observations from a re-analysis of the deposited data

Results flagged for a closer look

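For 79 of the 88 probe sets, every salted Ws array lay on one side of the unsalted Ws arrays and every salted Col array on the other side of the unsalted Col arrays. The difference was not tested for them, since the probe sets were chosen for it. Over all 22746 probe sets the share with this pattern was 4.79%.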

How the results depend on the processing

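The number of probe sets meeting the rule was 88, and 135 with replicate 1 arrays alone, 147 with responses of at least 0.4 and 24 with at least 0.75. It ran from 78 to 173 with single arrays left out, the highest without replicate 1 of Ws at 100 mM. Of the 61 higher in Ws, 0 were called higher in Col(gl) and 2 lower. These were 7 and 8 with only the groups compared, 9 and 9 without both plastid-low salted arrays, 5 and 7 with only the Col(gl) arrays and a replicate block, and 13 and 12 with crossed numbers as pairs (deviations of the Col(gl) groups correlated at -0.35). The crossed pairing has no basis in the labels and was added after the data were seen, so its counts are not a check on the calls. Of the 27 lower in Ws, 3 were called higher and 0 lower. In the same settings these were 9 and 2, 10 and 1, 9 and 0, and 11 and 2. With single arrays left out, the 61 gave 0 to 2 higher and 1 to 5 lower, and the 27 gave 1 to 5 and 0. Over all probe sets the Col(gl) count of 339 became 1338, 1987, 786 and 3027, and 28 to 690 with single arrays left out. For Ws minus Col, single arrays left out gave 4 to 9 higher and 33 to 39 lower of the 61, and 5 to 9 higher and 5 to 9 lower of the 27. Without both plastid-low arrays 10 of the 61 and 12 of the 27 were called higher, and with only Ws and Col in the fit 4 of the 27. For Col(gl) minus Col they were 4 to 7 and 33 to 38 of the 61, and 13 to 15 and 3 to 6 of the 27. The replicate block over all 12 arrays left the counts of members within 1.5 times (2 of the 61 lower and 3 of the 27 higher in Col(gl)). Of 38 called values of named members, 30 stayed called in every alternative and 0 changed sign. Leaving out Ws or Col arrays changes no Col(gl) salt difference, only the shared spread and its degrees of freedom. Beyond this the cause of the shifts was not tested.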
